A study of Mus musculus with 10 samples.

Results

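The 8 genes described here are markers by which alternatively activated macrophages of the mouse are usually recognised. Mrc1, Mgl2, Folr2 and Lyve1 encode receptors of the cell surface, Retnla and Chil3 encode secreted proteins, and Arg1 and Cbr2 encode enzymes. They were chosen by name from what is known of them, but with earlier results of these data known. All 8 were found among the 24538 genes of the count tables. The comparison was between macrophages of lung metastases and macrophages of normal lung. It asked whether the 8 genes differed in the same direction between these groups, and whether they rose and fell together from one metastasis library to the next.

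RNA-seq was performed on 5 libraries of metastasis-associated macrophages (MAMs) and 5 libraries of resident alveolar macrophages (RAMs). Both came from wild-type mice 8 to 10 weeks old and were sorted as live CD45+F4/80+LY6C-MRC1+ cells of high forward scatter. MAMs were the CD11B+CD11C- cells of dissected metastases under 1 mm across, which had been seeded by tail vein injection of E0771-LG mouse mammary tumor cells into syngenic C57BL6/J females 6 to 8 weeks old and were pooled from 2 to 4 mice. RAMs were the CD11C+CD11B- cells of normal lungs that had received no tumor cells. Tissue of both groups was digested in the presence of alpha-amanitin and actinomycin D, which block transcription. The groups thus differ in the macrophage subset that was sorted as well as in the presence of a tumor, and these cannot be told apart. Macrophages bearing MRC1 protein were selected in both groups, so the level of Mrc1 is partly set by the sort.

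Alternative activation is the response of macrophages to the cytokines IL-4 and IL-13, which act through the shared receptor chain IL4RA and the transcription factor STAT6. Its classical counterpart follows interferon-gamma and microbial products. Several of the marker genes are also carried by resident macrophages without such stimulation: Chil3 is abundant in alveolar macrophages, Folr2 and Lyve1 mark macrophages that lie along vessels, Retnla is known from macrophages of the body cavities, and Arg1 from those of tumors.

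Counts on genes ran from 55391447 to 87523247 per MAM library and from 50746305 to 72150650 per RAM library. Levels are given as CPM, a gene's count scaled to a common library total after TMM normalization, and as FPKM, which also divides by transcript length, where one gene is set beside another. No mouse is named in the labels, so p-values measure the spread between libraries. Marker lists were examined next. Of 15 tested markers of alveolar macrophages, 14 were lower in MAMs, and their summed level was 880 to 1218 CPM in MAMs and 9453 to 10268 CPM in RAMs. Of 14 markers of interstitial macrophages, 13 were higher in MAMs. Itgam, the most abundant of these 14 by CPM, encodes CD11B, on which the groups were sorted, so its direction was set by the sort. Of all genes tested, 28.9% were higher and 27.3% lower in MAMs. Ear1 and C1qb were among the most abundant genes of these lists, at 8.66 and 2233 CPM in MAMs and 856 and 20.4 CPM in RAMs.

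All 8 genes passed the test between the groups (edgeR's quasi-likelihood test, Benjamini-Hochberg adjusted p under 0.05), 6 of them higher and 2 lower in MAMs. The difference was over 2-fold for 7, as it was for 30.3% of all genes tested. The genes did not move as one group: Retnla, Folr2, Arg1, Cbr2, Mgl2 and Lyve1 were higher in MAMs, while Chil3 and Mrc1 were lower. Among all 11571 genes tested, 56.2% passed, 28.9% higher and 27.3% lower in MAMs, so a call alone was common. The sizes were less common. For 7 of the 8 genes the log2 fold change was over 4 in size, 6 higher and 1 lower in MAMs, a size passed by 5.15% of tested genes in the direction of MAMs and by 2.01% in the direction of RAMs. The median log2 fold change was 5.20 over the 8 genes and -0.02 over all genes tested. Mgl2 and Lyve1 entered the test only through their level in MAMs, so their direction was given by that filter. Of the 6 genes that reached an FPKM of 1 in both groups, 4 were higher and 2 were lower in MAMs.

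**Figure D1:**
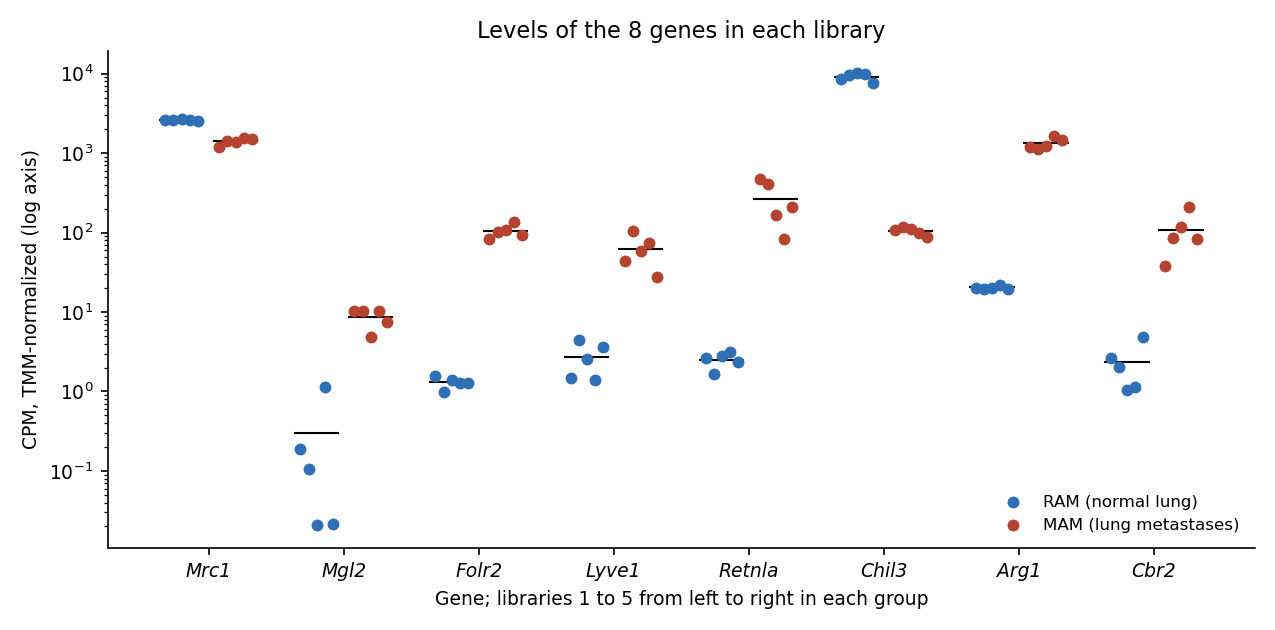
Level of each of the 8 genes in each library, in CPM after TMM normalization on a log axis; blue points are the 5 RAM libraries, red points the 5 MAM libraries, in the order of their replicate numbers, and black bars are group means. The points of the groups do not overlap for any of the 8 genes, and RAMs are the higher group for Mrc1 and Chil3 alone.

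For none of the 8 genes did a library of one group reach into the range of the other, as the plot of levels by library shows. Groups without overlap were found for 44.9% of all genes tested. An exact two-sided permutation test over the 10 libraries gave p = 0.00794 for each of the 8 genes. This is the smallest p this design allows, and any gene whose groups do not overlap receives it, so it adds nothing to the lack of overlap. Fewer cells that express a gene and less RNA per cell cannot be told apart in sorted bulk samples, and this holds for each value that follows.

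Before the individual genes are described, the sequence just before the start of 3 of them is shown, since these 3 stand at the ends of the comparison: Retnla and Folr2 had the largest rises, and Chil3 was the gene that fell most. Sequences were taken from RefSeq (GRCm38.p6), which held a promoter window of 250 bases before to 50 bases after the start for 6 of the 8 genes. Each is written 5′ to 3′ on the strand of its gene and ends before the first annotated transcribed base. Capitals mark TTC and GAA with 4 bases between them, the spacing bound by STAT6, or with 3 bases between them, the spacing of other STAT factors.
Retnla, chr16:48842359-48842550, plus strand: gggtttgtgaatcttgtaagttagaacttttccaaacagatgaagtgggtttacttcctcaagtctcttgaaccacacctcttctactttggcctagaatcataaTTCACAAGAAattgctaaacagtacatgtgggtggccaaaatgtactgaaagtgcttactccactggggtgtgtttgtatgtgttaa
Chil3, chr3:106167565-106167814, minus strand: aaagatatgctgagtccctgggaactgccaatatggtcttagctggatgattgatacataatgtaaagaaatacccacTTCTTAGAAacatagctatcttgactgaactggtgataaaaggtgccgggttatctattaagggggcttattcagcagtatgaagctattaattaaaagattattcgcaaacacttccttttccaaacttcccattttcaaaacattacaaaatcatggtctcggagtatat
Folr2, chr7:101857195-101857440, minus strand: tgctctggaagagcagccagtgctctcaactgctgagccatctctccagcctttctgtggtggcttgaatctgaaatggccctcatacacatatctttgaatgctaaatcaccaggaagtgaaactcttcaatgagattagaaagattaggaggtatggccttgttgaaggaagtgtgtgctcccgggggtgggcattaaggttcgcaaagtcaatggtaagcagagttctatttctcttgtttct
In the whole windows, searched on both strands, the 4-base spacing occurred before Retnla (TTCACAAGAA, from -87 to -78 relative to the GENCODE M21 start of the gene) and within Cbr2 (TTCGGAAGAA, from 118 to 127 on the same count). The RefSeq start on which the window is built lies 58 bases inside the GENCODE gene for Retnla and 93 bases inside it for Cbr2, so that from the RefSeq start the matches run from -145 to -136 and from 25 to 34. The 3-base spacing occurred before Chil3 (TTCTTAGAA, from -172 to -164), where both starts are the same base. A pair of GAAA with 2 bases between them, the letters of an interferon-stimulated response element, was in none of the windows. These letters are common: among 32851 mouse promoter windows of the same length, 6.95% held the first, 8.3% the second and 3.44% the third. The matches describe letters only.

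The receptors of the cell surface divided into 1 that was lower and 3 that were higher in MAMs. Mrc1, the mannose receptor (chr2:14229392-14332057, plus strand; all gene positions are from GENCODE M21 on GRCm38), was read at 1191, 1420.4, 1387, 1553 and 1507 CPM in MAM replicates 1 to 5. In RAM replicates 1 to 5 it was at 2598, 2608, 2728, 2646 and 2544 CPM. It was thus among the most abundant of the 8 genes in both groups, and the 5 RAM libraries lay close together. On the log2 scale MAMs stood at -0.89 ± 0.0710 against RAMs (SE, adjusted p = 3.9e-08, edgeR). This is 1.86-fold lower in MAMs and under the 2-fold limit, except under upper-quartile scaling, where the value was -1.06. That scaling moved the median of all tested genes by -0.16. The gene Mir511 lies within the span of Mrc1, and how reads there were counted was not examined.

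Folr2 encodes folate receptor beta (chr7:101839988-101857194, minus strand). It was at 82.0, 102, 107, 136 and 93.4 CPM in MAMs and at 1.58, 0.976, 1.39, 1.29 and 1.28 CPM in RAMs. Every MAM library was at least 52.1-fold above the highest RAM library. This gave a difference of 6.32 ± 0.186 on the log2 scale (SE, adjusted p = 4.8e-13, edgeR), 80.0-fold.

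Lyve1, a hyaluronan receptor of lymphatic vessels and of some resident macrophages (chr7:110850607-110863239, minus strand), was at 43.8, 106, 58.1, 73.1 and 27.9 CPM in MAMs. In RAMs it was at 1.49, 4.40, 2.55, 1.40 and 3.62 CPM. Both groups were spread, yet the lowest MAM library was 6.35-fold above the highest RAM library. MAMs were higher by 4.51 ± 0.404 on the log2 scale (SE, adjusted p = 1.5e-07, edgeR), or 22.9-fold. Prox1, which defines lymphatic endothelium, was at 0.142 to 0.575 CPM in MAMs and 14.8 to 22.7 CPM in RAMs, and Ccl21a, another lymphatic gene, had no count in any library. Pdpn, also of the endothelium and lymphatic list, went the other way, at 117 CPM in MAMs and 4.47 CPM in RAMs. Of the 6 tested genes of that list, 4 were higher and 2 lower in MAMs. Prox1 and Ccl21a were looked up for Lyve1 after its values were seen, and a lymphatic source of Lyve1 was not tested.

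Mgl2, a galactose-binding lectin (chr11:70130329-70137550, plus strand), was the least abundant of the 8. It was at 10.3, 10.2, 4.81, 10.4 and 7.47 CPM in MAMs, and its counts in the 5 RAM libraries were 11, 7, 1, 55 and 1. RAM replicate 4 therefore held most of the reads of its group. MAMs were higher by 4.87 ± 0.857 on the log2 scale (SE, adjusted p = 1.8e-04, edgeR), and by 6.59 without RAM replicate 4. Its neighbour Clec10a encodes the sister lectin and shares 5.92% of the 100-base windows of the Mgl2 transcript, so reads there had no unique place. Clec10a was at 5.80 CPM in MAMs and 0.107 CPM in RAMs, higher by 5.72 on the log2 scale (adjusted p = 1.0e-05, edgeR). Like Mgl2, it entered the test only through its level in MAMs.

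The genes of the secreted proteins went in opposite directions. Retnla, which encodes a resistin-like protein (chr16:48842551-48844461, plus strand), ranked 122nd of 11571 tested genes by log2 fold change. It was at 471, 410.2, 168, 82.2 and 210.4 CPM in MAMs and at 2.65, 1.68, 2.77, 3.17 and 2.34 CPM in RAMs. The MAM libraries differed widely among themselves, but the lowest was 25.9-fold above the highest RAM library. The difference came to 6.74 ± 0.453 on the log2 scale (SE, adjusted p = 5.7e-09, edgeR), or 107-fold.

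Chil3, a chitinase-like protein that alveolar macrophages secrete (chr3:106147554-106167564, minus strand), ranked 66th from the other end. It was at 8553, 9577, 10109.6, 9974 and 7541 CPM in RAMs and at 108, 118, 110.3, 100.3 and 89.1 CPM in MAMs. Libraries of each group lay close together, and the lowest RAM library was 63.9-fold above the highest MAM library. On the log2 scale MAMs stood at -6.44 ± 0.114 against RAMs (SE, adjusted p = 2.6e-15, edgeR), 87.1-fold lower. The near copy Chil4 shares 3.75% of the 100-base windows of the Chil3 transcript, and was at 0.0533 CPM in MAMs and 0.499 CPM in RAMs.

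Both enzymes were higher in MAMs. Arg1, arginase, which splits arginine into ornithine and urea (chr10:24915221-24927484, minus strand), was at 1179, 1123, 1218, 1661 and 1478 CPM in MAMs. In RAMs it was at 20.2, 19.7, 20.2, 22.2 and 19.6 CPM. The RAM libraries lay close together and the MAM libraries were more spread, and the groups differed by 6.03 ± 0.125 on the log2 scale (SE, adjusted p = 9.1e-15, edgeR), or 65.3-fold.

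Cbr2, a carbonyl reductase that is abundant in lung (chr11:120729489-120732114, minus strand), was at 37.8, 84.8, 117, 213 and 83.7 CPM in MAMs. In RAMs it was at 2.62, 2.01, 1.04, 1.13 and 4.82 CPM. The lowest MAM library was 7.85-fold above the highest RAM library. MAMs were higher by 5.53 ± 0.505 on the log2 scale (SE, adjusted p = 2.0e-07, edgeR), or 46.2-fold.

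Per transcript length, the 8 genes stood in a different order in each group. In MAMs Arg1 led with an FPKM of 939 ± 153 (SD, n = 5), followed by Retnla at 636 ± 394, Mrc1 at 221 ± 22.1, Cbr2 at 126.3 ± 76.7 and Folr2 at 110 ± 22.5, and the ranges of neighbours among these 5 genes overlapped. Chil3 at 61.7 ± 7.26, Lyve1 at 22.3 ± 11.1 and Mgl2 at 4.98 ± 1.09 FPKM followed, each apart from its neighbours. In RAMs Chil3 led with 6879 ± 852 FPKM and was apart from Mrc1 at 418 ± 13.2, which was apart from Arg1 at 10.3 ± 1.23. Retnla at 6.42 ± 1.40, Cbr2 at 2.98 ± 1.87, Folr2 at 1.38 ± 0.228 and Lyve1 at 0.992 ± 0.463 FPKM overlapped with their neighbours, and Mgl2 at 0.139 ± 0.159 was lowest. Thus Chil3 was the leading gene of the set in RAMs and the sixth in MAMs.

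Abundant genes of one group kept a low level in the other. Among 86 genes over 1000 CPM of the library total in MAMs, the lowest relative level in RAMs was 1.06% of that in MAMs (C1qb). Among 65 such genes of RAMs the lowest was 0.992%, and this gene was Chil3 itself, while the next, Atp6v0d2, was at 2.57%. Of 1901 genes over 100 CPM in MAMs, 41 were at 0.8 to 1.3% of that level in RAMs, and of 1923 such genes of RAMs, 16 were in this range in MAMs. On this scale, CPM of the library total without TMM, which differs from the CPM printed elsewhere, the level in the low group was 1.10% of that in the high group for Retnla, 1.45% for Folr2, 1.77% for Arg1, 2.49% for Cbr2, 3.95% for Mgl2, 5.03% for Lyve1 and 46.5% for Mrc1. Retnla in RAMs and Chil3 in MAMs were among the 41 and the 16 genes of that range.

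**Figure D2:**
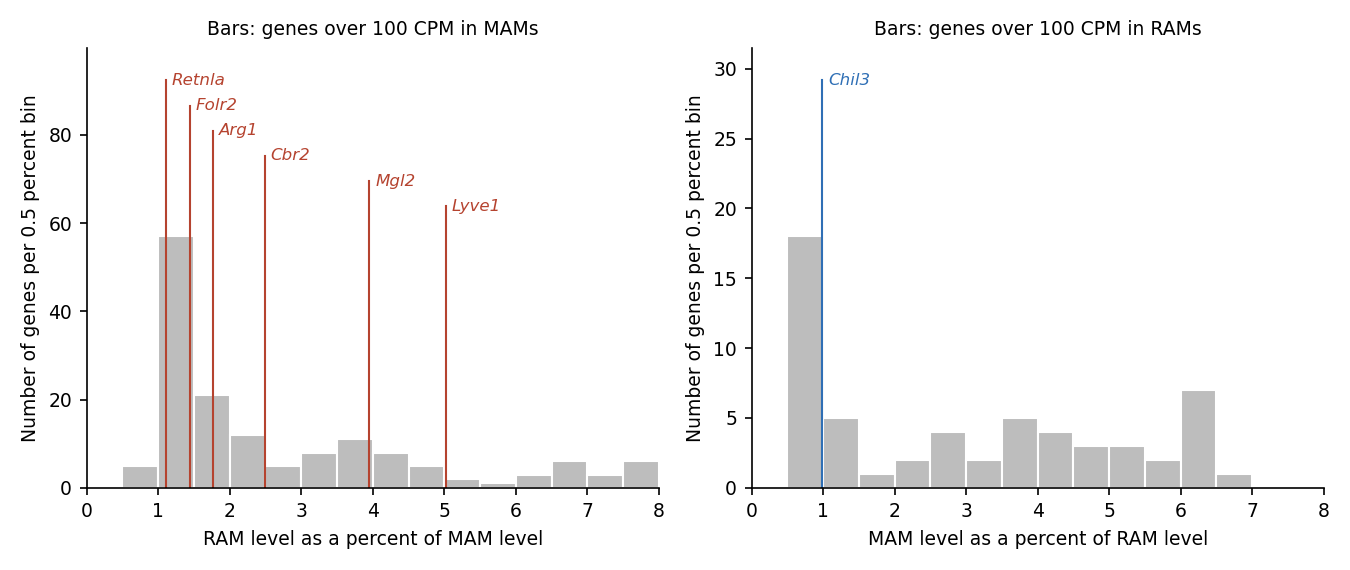
Number of genes (bars, in bins of 0.5 percent) by their level in the low group as a percent of their level in the high group, for genes over 100 CPM of the library total in MAMs (left) or RAMs (right), up to 8 percent. Lines mark the named genes. Of these, Folr2, Cbr2, Mgl2 and Lyve1 are under 100 CPM on this scale and are not in the bars. The lines of Retnla and Folr2 stand at the place of the tallest bar on the left and that of Chil3 at the tallest on the right, at 1.10%, 1.45% and 0.992%.

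To see how far such a common level could carry a fold change, 1% of the other group's mean was subtracted from every library before a limma test on log2(CPM + 0.1). After this step the log2 fold change was 10.43 for Retnla, where 3 of 5 RAM libraries were left at 0, and -10.58 for Chil3, where 1 MAM library was left at 0. It was 8.33 for Folr2, 7.53 for Arg1 and 7.19 for Cbr2, and moved less for Lyve1 (4.93), Mgl2 (5.43) and Mrc1 (-0.92). The source of the common level was not tested. The direction was the same for all 8 genes, but the sizes of the first 5 differences depend on this step by more than 1.5-fold. The change was largest for Chil3, from -6.44 with edgeR to -10.58, and for Retnla, from 6.74 to 10.43. The step also replaced edgeR by limma with an offset of 0.1, which sets the value of libraries left at 0. The effect of the subtraction alone was therefore not measured. On log2(FPKM + 1), which understates the change of low genes, limma gave 5.52 for Folr2, 4.91 for Cbr2, 3.44 for Lyve1 and 2.38 for Mgl2.

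**Figure D3:**
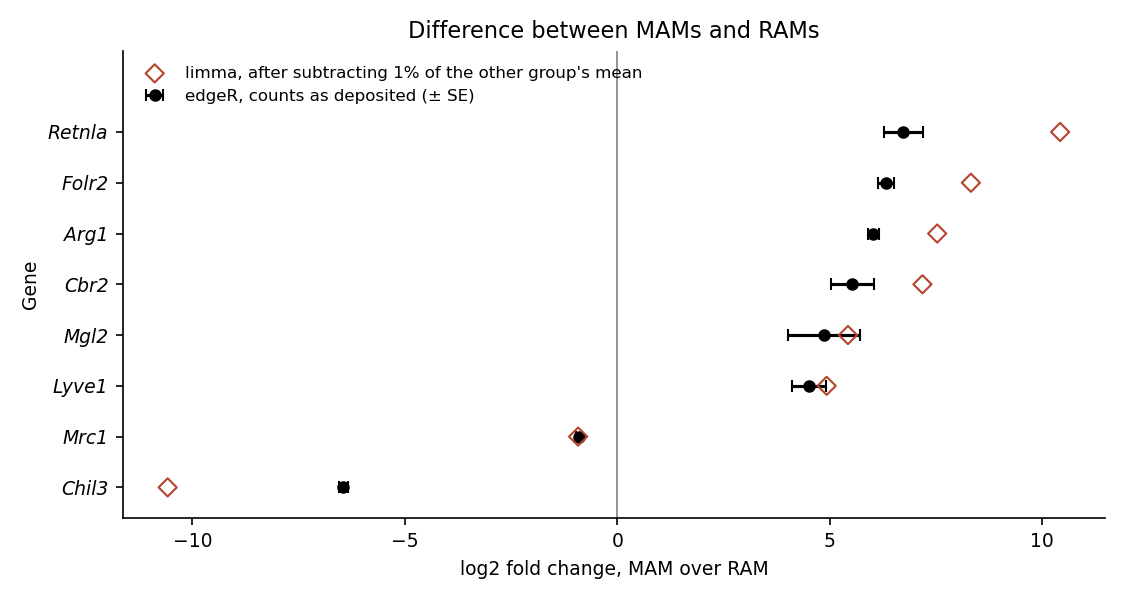
Log2 fold change of MAMs over RAMs for each of the 8 genes; black points with bars are the edgeR estimate and its standard error, open diamonds the limma estimate after subtracting 1% of the other group's mean. Diamonds lie farther from 0 than the points, by most for Retnla (10.43 against 6.74) and Chil3 (-10.58 against -6.44).

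Genes related to the 8 were then counted in lists taken from general knowledge, several of which share genes. These lists too were chosen with earlier results of these data known. Ccl8, Rnase2a, Cxcl11, Cd40, Timd4, Ccl24 and Nos2, which are named below, were under an FPKM of 1 in RAMs. They entered the test only through their level in MAMs, so their direction was given by that filter. The counts and medians of the lists include such genes. For comparison, 28.9% of all genes tested were called higher and 27.3% lower in MAMs. Among 24 tested genes of IL-4 and IL-13 signalling, 10 were higher, 10 were lower and 4 did not pass, with a median log2 fold change of -0.09. The largest differences were those of Socs1, a feedback inhibitor of cytokine receptors, at 3.13, Il2rg, a receptor chain shared by several interleukins, at 2.66, and the nuclear receptor gene Pparg at -2.45, which is also an alveolar macrophage marker (adjusted p = 0.0033, 2.3e-10 and 1.4e-10, edgeR). Outside the naming rule, Il4ra was higher by 1.23 (adjusted p = 1.3e-08, edgeR), at 248 CPM in MAMs and 106 CPM in RAMs, and Stat6 did not pass, at 252.2 and 227 CPM (adjusted p = 0.0775, edgeR), except without MAM replicate 1, where the log2 fold change was 0.19. Il4 and Il13 themselves had at most 8 and 5 counts in any library.

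**Figure D4:**
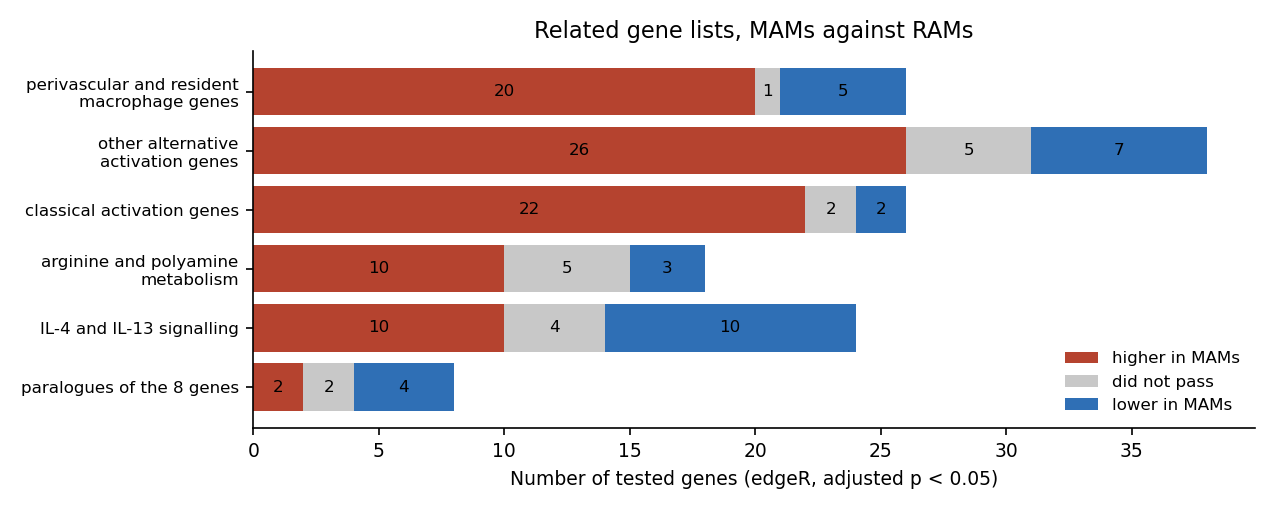
Number of tested genes of each related list that were higher in MAMs (red), lower in MAMs (blue) or did not pass the edgeR test at an adjusted p of 0.05 (grey). Most genes of the perivascular, alternative activation and classical activation lists are red, whereas genes of IL-4 and IL-13 signalling are split 10 to 10.

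Of 38 other alternative activation genes that were tested, 26 were higher, 7 were lower and 5 did not pass, with a median of 1.93. The chemokine genes Ccl8 and Ccl7 were higher by 7.08 and 6.77 (adjusted p = 1.15e-08 and 1.1e-14, edgeR). Rnase2a, a ribonuclease gene of the eosinophil-associated family, had no count in RAMs and 0 to 83 counts in MAMs, at least 10.2-fold higher against a floor of 3 counts in each library, or 5.34-fold without MAM replicate 1. Slc7a2, a transporter of arginine, was lower by 2.91 (adjusted p = 5.0e-07, edgeR), and was picked out after its values were seen.

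Classical activation genes were higher in MAMs as well. Of 26 tested, 22 were higher, 2 were lower and 2 did not pass, and the median was 3.72. Cxcl11, an interferon-induced chemokine gene, was higher by 6.67, the costimulatory receptor gene Cd40 by 6.39 and Acod1, which makes itaconate, by 6.34 (adjusted p = 3.6e-07, 8.85e-12 and 2.1e-11, edgeR). Genes of both activation lists thus lay mostly above RAMs.

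Of 26 perivascular and resident macrophage genes, 20 were higher, 5 were lower and 1 did not pass, with a median of 5.73. Timd4, a receptor for phosphatidylserine, was higher by 6.92, and the chemokine gene Ccl24 by 6.76 (adjusted p = 8.7e-09 and 6.2e-10, edgeR). Ccl8 is in this list too. Among 18 genes of arginine and polyamine metabolism, the pathway around Arg1, 10 were higher and 3 were lower, and the median was 0.76, or 0.51 with genes without counts in one group set at their floor or left out. Nos2, the enzyme that competes with arginase for arginine, was higher by 5.95, and Smox, spermine oxidase, by 3.77 (adjusted p = 8.7e-08 and 4.7e-10, edgeR). Oaz1, an inhibitor of polyamine synthesis, is one of the 3 called lower, with no count in MAMs and at most 18 counts in RAMs. Its deposited FPKM was 36.5 in MAMs and 35.1 in RAMs, its log2 fold change on log2(FPKM + 1) was 0.05, and its call was lost under 13 of 18 alternatives, so these counts give no direction for it. Amd1 and Ass1 likewise had at most 5 counts and 1 count in any library beside FPKM values of 0.448 and 4.62 in MAMs, and were looked up after their values were seen.

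Paralogues of the 8 genes were mostly low or moved by less. Of 24 listed, 8 were tested, of which 2 were higher and 4 were lower. Arg2, the mitochondrial arginase, was higher by 0.97 (adjusted p = 0.0172, edgeR), but did not pass without MAM replicate 4, at 0.72. Ly75, a relative of Mrc1, was lower by 5.88, at 7.69 CPM in MAMs and 453 CPM in RAMs (adjusted p = 4.9e-15, edgeR), and Cd44, a hyaluronan receptor like Lyve1, was lower by 0.94 (adjusted p = 5.5e-09, edgeR). Cbr1 and Cbr4 were lower by 0.60 and 0.95 (adjusted p = 0.0426 and 0.0040, edgeR), the first of which was lost under 9 of 19 alternatives, whereas Cbr3 and Dcxr did not pass, at log2 fold changes of 0.28 and -0.12. Retnlb, Chil6 and Folr1 had no count in any library. Below the filter on FPKM, Pla2r1 was at 1.94 CPM in MAMs and 0.0194 CPM in RAMs and Stab2 at 1.02 and 2.47 CPM. Mrc2, Retn, Retnlg, Chil1, Chil4, Chil5, Chia1, Chit1, Asgr1, Asgr2 and Izumo1r had mean levels of at most 0.866 CPM in either group.

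The second question was whether the 8 genes varied together among MAM libraries. With 5 libraries no correlation was computed, and the values are a description. The spread differed greatly between genes. The standard deviation of log2 CPM was 1.02 for Retnla, 0.902 for Cbr2 and 0.729 for Lyve1, against a median of 0.212 over 8110 genes of at least 10 CPM in MAMs, and only 10% of those genes exceeded 0.457. Mgl2, with a mean under 10 CPM, had 0.482. Folr2 at 0.271, Arg1 at 0.240, Chil3 at 0.154 and Mrc1 at 0.149 varied as ordinary genes did. The highest MAM library was 5.73-fold above the lowest for Retnla, 5.63-fold for Cbr2 and 3.79-fold for Lyve1, but 1.304-fold for Mrc1.

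The most variable genes did not follow one order. Retnla was highest in MAM replicate 1 and lowest in MAM replicate 4. Cbr2 was highest in MAM replicate 4 and lowest in MAM replicate 1, and Lyve1 was highest in MAM replicate 2 and lowest in MAM replicate 5. Folr2 had the same order of libraries as Cbr2, from replicate 4 over 3, 2 and 5 to 1, over a narrower range.

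**Figure D5:**
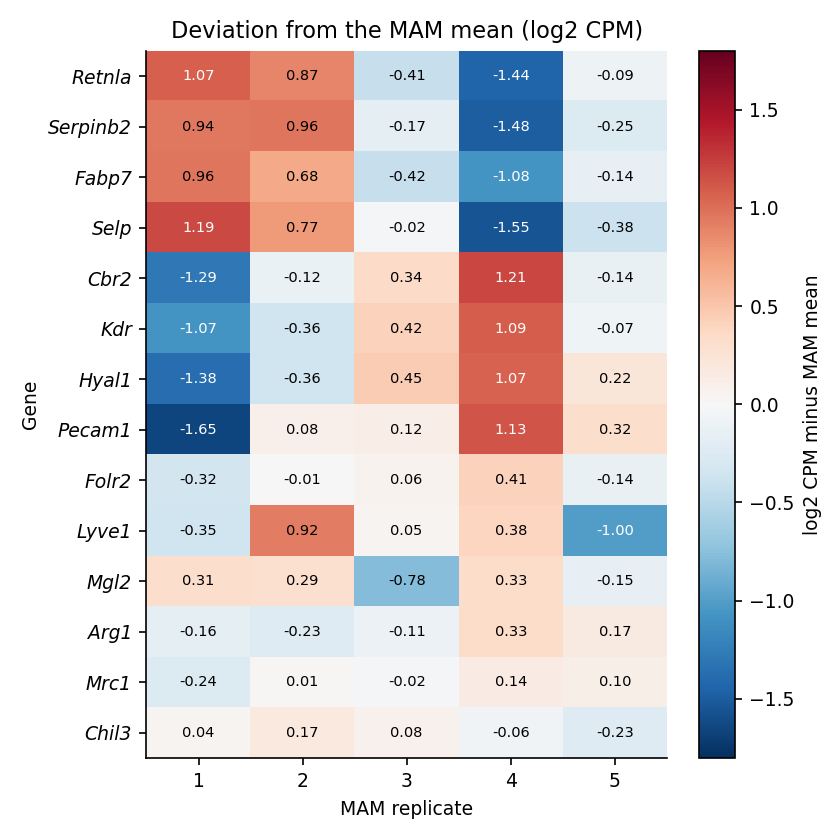
Deviation of log2 CPM from the mean of the 5 MAM libraries, for the 8 genes and for 6 of the genes nearest to Retnla or Cbr2. Of the 5 nearest genes of each, Ryk and Slc9a3r2 (Retnla) and Gpr171 and Ms4a4a (Cbr2) are not shown. Red is above and blue below the mean. Retnla and the 3 genes under it are red in replicates 1 and 2 and blue in replicate 4, and Cbr2 and the 3 genes under it are blue in replicate 1 and red in replicate 4.

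Likeness was measured as the root mean square difference between the profiles of log2 CPM, after the mean over MAM libraries had been subtracted from each gene. Retnla and Cbr2 differed by 1.68, so that Cbr2 ranked 8094th of 8110 genes in likeness to Retnla. They lay on the same side of their means in 1 of 5 libraries. With its sign turned, Cbr2 differed from Retnla by 0.382 and ranked 14th. The smallest difference between any 2 of the 8 genes was 0.139, that of Chil3 and Arg1 with the sign of one turned, followed by 0.142 for Chil3 and Mrc1 in the same way and 0.152 for Arg1 and Mrc1 without turning. These are genes of little spread, for which a small difference says little.

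The genes nearest to Retnla were Serpinb2, a protease inhibitor gene, at a difference of 0.149, then Fabp7, Ryk, Slc9a3r2 and Selp. Serpinb2 was at 203, 205, 93.5, 37.7 and 88.5 CPM in MAM replicates 1 to 5, and Selp, the gene of P-selectin, at 27.6, 20.7, 11.99, 4.11 and 9.28 CPM. Both are in the list of serous cavity macrophage markers, and both were high in replicates 1 and 2 and lowest in replicate 4, as Retnla was. The genes nearest to Cbr2 were Kdr, a receptor for vascular endothelial growth factor, at 0.161, then Hyal1, Gpr171, Pecam1 and Ms4a4a. Kdr was at 12.1, 19.9, 34.2, 54.3 and 24.3 CPM and Pecam1 at 4.43, 14.9, 15.2, 30.8 and 17.5 CPM in MAM replicates 1 to 5. Slc9a3r2 was nearer to Retnla than Selp was, and Gpr171 nearer to Cbr2 than Pecam1 was. These did not pass between the groups, at log2 fold changes of 0.09 and 0.22 (adjusted p = 0.84 and 0.53, edgeR). The first 5 places changed when 1 MAM library was left out: 1 to 4 of the 5 genes were kept for Retnla and 0 to 3 for Cbr2. Within the nearest 50 of 8110 genes, all 5 were kept for Retnla, or 4 without MAM replicate 4, and 2 to 5 for Cbr2. For Lyve1 the nearest were Msh3, Wdr47, Rbbp9, Faap24 and Omg, of which 1 to 5 were kept in the first 5 places, and for Mgl2 they were Lman2l, Tars2, Sil1, Rwdd4a and Klhl6, of which 0 to 4 were kept.

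Marker lists moved with the libraries, and their values are set beside the 2 genes. The summed level of 18 serous cavity macrophage markers was 18120, 15923, 11500, 9298 and 11567 CPM in MAM replicates 1 to 5, in the same order as Retnla, and 4535 to 5799 CPM in RAMs. Fn1, fibronectin, was its most abundant gene, at 6965 CPM in MAMs. Without Fn1 the sum was 7711, 6886, 5613, 5711 and 5661 CPM, no longer in that order, with replicate 3 lowest. The order was not particular to this list. The sum of monocyte markers was 2102, 2099, 1810, 1679.9 and 1900 CPM in MAM replicates 1 to 5, also in the order of Retnla. The sum of alveolar macrophage markers was highest in replicate 1 and lowest in replicate 4 as well, at 1218 and 880 CPM. Of the 15 tested genes of the serous cavity list, 13 were higher in MAMs. Of the same 15, 9 were highest in replicate 1 and lowest in replicate 4, as were 7.42% of all tested genes, and none had the reverse. These end libraries were taken from Retnla. Serpinb2 and Selp of this list were named for their nearness to Retnla over these same libraries, and Selp is one of the 9. The likeness of the list to Retnla is thus partly built in. Gata6, the defining factor of serous cavity macrophages, was at 3.82, 4.22, 1.16, 0.163 and 0.244 CPM in MAMs. Of 38 other alternative activation genes, 15 were highest in replicate 1 and lowest in replicate 4 and 3 the reverse. Of 26 classical activation genes, the numbers were 9 and 0. Of 26 perivascular and resident macrophage genes, 6 were highest in replicate 4 and lowest in replicate 1, as were 3 of the 8 genes (Cbr2, Folr2 and Mrc1) and 6.4% of all tested genes. Another 3 of the 26, Timd4 among them, were highest in replicate 1 and lowest in replicate 4, as Retnla was.

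The summed level of 15 endothelium and lymphatic markers was 104, 169, 229, 246 and 218 CPM in MAM replicates 1 to 5, lowest and highest where Cbr2 was. The list includes Kdr and Pecam1, which were named for their nearness to Cbr2 over these same libraries. The likeness of the sum to Cbr2 is thus partly built in. Of the 6 tested genes of the list, 2 were highest in replicate 4 and lowest in replicate 1, namely Kdr and Pecam1. Pdpn and Vwf were highest in replicate 3, at 141 and 25.6 CPM. Cldn5, which defines vascular endothelium, had no count in any MAM library. Ccl21a, of lymphatic endothelium, had none in any library of either group, so its absence cannot tell the groups apart. In MAMs Cdh5 was at 4.82 to 10.8 CPM and Vwf at 19.3 CPM (151 CPM in RAMs), and Pdpn, at 117 CPM, made up the largest share. Other lists were also lowest in replicate 1 and highest in replicate 4. The sum of neutrophil markers was at 150 and 325 CPM there, and that of lymphocyte markers at 13.8 and 26.7 CPM. The part of any of these marker lists in the values of Retnla and Cbr2 was not tested.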

How the data were processed

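RNA-seq was performed on 5 MAM and 5 RAM libraries, grouped by their sample titles. Per the labels and the methods of the study, the authors prepared libraries with the Ovation RNA-Seq System V2, sequenced paired reads of 100 bases, aligned them to GRCm38 with TopHat 2.0.13, and counted the uniquely mapped ones with HTSeq 0.6.1 on UCSC RefGene gene models. The strand setting of the counting is not given in the sources used here. The authors deposited these counts without normalization, and FPKM values from Cufflinks 2.2.1. The submitters' processing notes also name DESeq2 1.6.3. Lines that name no gene held 54.6 to 58.3% of the lines' sum in MAMs and 62.2 to 64.1% in RAMs and were left out.

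Counts were normalized by TMM and tested with edgeR 4.0.16 in R 4.3.3, using the quasi-likelihood test with Benjamini-Hochberg adjustment over the 11571 genes whose mean FPKM reached 1 in either group. Log2 CPM had a prior count of 2. A call was an adjusted p under 0.05. Single genes were also tested by exact permutation. The 8 genes, the lists and the naming rule were chosen with earlier results of these data known, and no list was tested as a set. From each related list the 3 genes of largest absolute log2 fold change that passed were named, with all paralogues that were detected, the 5 nearest genes of each member of high spread, and, of the most abundant markers, some. Genes named outside this rule were chosen after their values were seen.

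Alternatives were RLE and upper-quartile scaling, DESeq2 1.42.0, no filter, edgeR's own filter, a replicate block, limma 3.58.1 on log2(FPKM + 1) and log2(FPKM + 0.1), subtraction of 1% of the other group's mean, and each library left out. Sums without the top gene, counts of genes by the order of libraries and floor folds with 1 library left out were added after seeing the data. The fits were tested on simulated data. Counts of 0 allow up to 3 counts, a limit for counting error alone, since no molecular identifiers are described and reads need not be separate molecules. Figures were made in Python 3.11.15 (matplotlib 3.10.9).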

Additional observations from a re-analysis of the deposited data

Results flagged for a closer look

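Of 38 groups of 5 values that were examined for a library far from the other 4 (the levels of the 8 genes and the sums of 11 marker lists in each group), 4 were found by Dixon's limit of 0.71, where chance gives about 1 in 20. All 4 were RAM libraries. Mgl2 was at 1.15 CPM in RAM replicate 4 and at 0.0207 to 0.188 CPM in the other RAM libraries. Arg1 was at 22.2 CPM in RAM replicate 4 and at 19.6 to 20.2 CPM in the others. The sum of endothelium and lymphatic markers was 246 CPM in RAM replicate 4 and 153 to 179 CPM in the others. The sum of neutrophil markers was 205 CPM in RAM replicate 3 and 140 to 158 CPM in the others. Without RAM replicate 4 the log2 fold change was 6.59 for Mgl2.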

How the results depend on the processing

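The direction and the call of the 8 genes were the same in all 152 values over 19 alternative fits, 10 of which left out 1 library, and the highest adjusted p was 8.65e-04. Genes past 2-fold numbered 3511, and 2909 with limma on log2(FPKM + 1) to 4672 without a filter on low expression. With the replicate number as a block there were 3526. Deviations of same-numbered libraries did not go together (r from -0.02 to 0.03), so the numbers were not taken as pairs, and the replicate block changed no call of the 8 genes, with Mgl2 at 5.96. The places of the 8 genes by FPKM were the same for TMM counts per kilobase in all 16 cases.

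When 1 library was left out, paralogues higher in MAMs numbered 1 to 2. The standard deviation over MAM libraries ran from 0.0750 to 0.171 for Mrc1, 0.0965 to 0.176 for Chil3, 0.232 to 0.547 for Mgl2 and 0.168 to 0.313 for Folr2, lowest without MAM replicates 1, 5, 3 and 4. On log2(FPKM + 1) it was 0.293 for Mgl2. Of the 5 nearest genes, 1 to 4 were kept for Retnla, 0 to 4 for Mgl2, 1 to 5 for Lyve1 and 0 to 3 for Cbr2. On log2(FPKM + 1), 2 were kept for Retnla, 0 for Mgl2 and 1 for Lyve1. The cause was not tested.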

Other observations

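Marker lists of other cells were counted in the same test, in which 28.9% of all genes were higher and 27.3% lower in MAMs. Of 14 tested monocyte markers 9 were higher and 2 lower in MAMs, with Plac8 at 101 and 0.924 CPM and a sum of 1679.9 to 2102 CPM in MAMs against 416 to 523 CPM in RAMs. Of 7 tested dendritic cell markers 4 were higher and 2 lower, and of 7 neutrophil markers 4 were higher and 1 lower. Of 10 lung epithelium markers 1 was higher and 7 were lower, with Epcam at 0.652 CPM in MAMs and 76.8 CPM in RAMs. Epcam entered the test only through its level in RAMs. Of 3 fibroblast and mesothelium markers 2 were higher, of 4 lymphocyte markers 1 was higher, and of 6 endothelium and lymphatic markers 4 were higher and 2 lower. None of 10 eosinophil and mast cell markers reached the test, and their sum was at most 5.54 CPM.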
